A study of Rattus norvegicus with 24 samples.

Results

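The genes described here are the Wnt ligands, their receptors, the R-spondins, the secreted inhibitors and a pair of feedback genes, in day 7 skin wounds of diabetic rats. They were taken by symbol from the list of measured targets and came to 50 of 19962: 19 Wnt ligands, 4 R-spondins, 10 Frizzled receptors, 5 other receptors or co-receptors (Lrp5, Lrp6, Ror1, Ror2, Ryk), 10 secreted inhibitors (the Sfrp and Dkk families, Frzb and Wif1), and Axin2 and Lef1. Male SD rats, 5 weeks old, were made diabetic by STZ injection and given splinted skin wounds of 8 mm. The wounds belonged to 3 treatments, Sham, Gel (a hydrogel) and CuNZ@Gel (a hydrogel whose composition the labels do not spell out), all in diabetic animals, with no wound of a non-diabetic rat. What the Sham wounds received is not stated in the labels.

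Fixed tissue sections were profiled with the GeoMx platform, in which indexed probes are released by light from chosen areas and counted. Each treatment had 2 numbered specimens, and each specimen gave 2 regions that were each split into 2 segments, which makes 24 areas. The labels name the regions "mac1" and "mac2" and the segments by number only, and do not name the fluorescent markers behind them. They also do not say that a specimen is an animal, so the p-values below cannot be read as measuring spread between animals. The unit is the specimen, and the spread used in the tests was drawn mostly from other targets at a similar signal level. In an area of tissue, fewer cells of a type and less RNA per cell cannot be told apart.

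Wnt proteins are secreted, lipid-modified ligands that bind Frizzled receptors. Together with the co-receptors Lrp5 and Lrp6 they stabilise beta-catenin, which switches on target genes with transcription factors such as Lef1, while Ror2 and Ryk serve branches that run without beta-catenin. Secreted frizzled-related proteins bind Wnt proteins outside the cell, Dkk proteins block Lrp5 and Lrp6, and R-spondins raise the amount of receptor at the surface. In skin the pathway is best known for building hair follicles and for the behaviour of dermal fibroblasts.

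Most of these genes gave no signal that stood out from background. As the background limit of an area served the value that 99% of its 1116 odorant and pheromone receptors stayed under (11.4 to 21.6 in scaled signal, median 14.3), and a gene counts here as above background when it passed that limit in at least 4 areas, as 27.8% of all targets did. Of the 50 genes 9 did so. Sfrp2, Fzd1, Fzd2 and Lrp6 passed the limit in all 24 areas, Sfrp4 in 23, Ryk in 22, Wnt5a in 21, Wnt4 in 16 and Ror2 in 6. Rspo1 and Rspo3 passed it in 3 areas each, and Fzd3, Fzd5, Fzd10 and Rspo4 in 1 each. The remaining 35 genes, which include 17 Wnt ligands, all 4 Dkk genes, Wif1, Frzb, Lrp5, Ror1, Axin2 and Lef1, passed it in no area. A low signal does not show that a gene was silent, and no probe was matched to its transcript here.

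**Figure D1:**
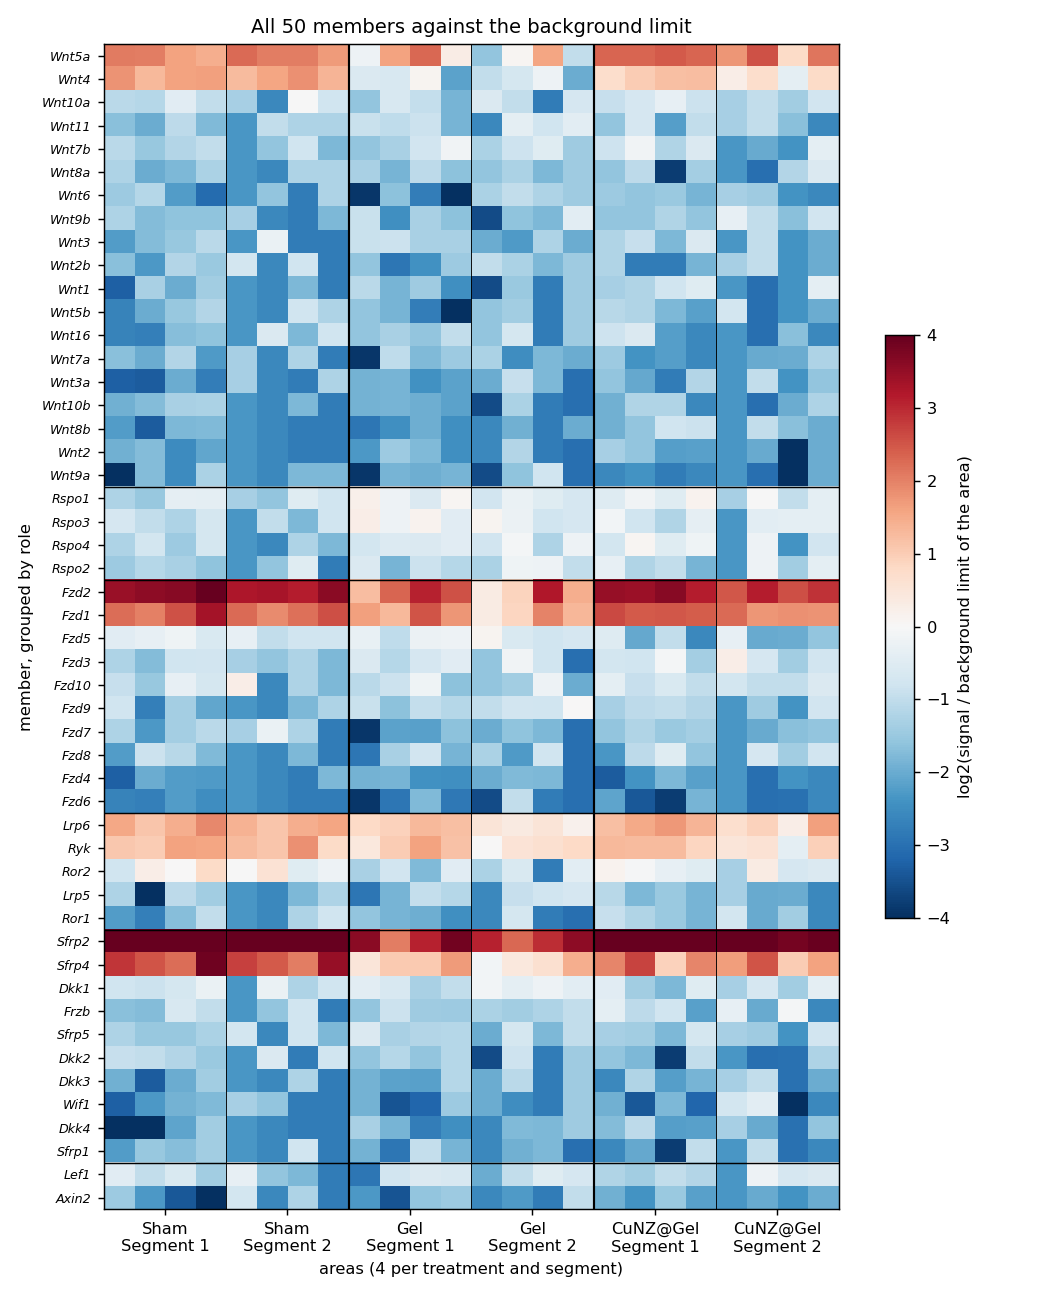
Signal of each of the 50 genes divided by the background limit of the same area, on a log2 colour scale (red above the limit, blue below), for 24 areas in columns grouped by treatment and segment; genes are grouped by role and sorted by their median within a role. Of the 9 genes above background 8 show mostly red rows and Ror2 a mostly blue one (6 of 24 areas over the limit), and the Wnt4 and Wnt5a rows turn pale or blue in Gel areas.

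The depth of an area, as counts recovered from the deposited signal, ran from 86386 to 1476512 (median 340374). Segment 2 had a median of 170042 against 533137 in Segment 1 and was the shallower in 11 of 12 regions, the exception being region 2 of Gel specimen 1 (688520 against 481140). Of 10 fibroblast markers 8 were above background, and of 10 macrophage markers 5 (Cd68, Lyz2, Csf1r, Mrc1 and C1qa), while Adgre1, Cd163, Itgam, Cd14 and Aif1 passed the limit in no area. None of 10 keratinocyte markers or 11 hair follicle markers was above background in 4 areas. No pair of areas looked like a repeat of the same library (highest correlation between 2 areas of a specimen 0.96, median 0.903).

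Treatments were compared with limma on log2(signal + 1), averaged over the 4 areas of a specimen. All log2 changes below are on that scale, and adjusted p-values are corrected over the 19728 targets that entered the fit and called under 0.05. Of the 50 genes 49 entered the tests and Fzd6 fell out for low signal. Between Gel and Sham 6 of the 49 were lower (Sfrp2, Wnt4, Sfrp4, Wnt5a, Ror2 and Fzd1) and 0 higher, where over all targets 1.80% were lower and 0.618% higher. Between CuNZ@Gel and Sham 2 of the 49 were lower (Sfrp2 and Sfrp4) and 0 higher, against 0.988% and 0.324% of all targets. Between CuNZ@Gel and Gel 5 of the 49 were higher (Wnt5a, Wnt4, Sfrp2, Sfrp4 and Fzd1) and 0 lower, against 0.623% and 0.319%.

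The balance of calls over all targets depended on the scaling, while the called members kept their direction under all of those tried. Under the common total, 2 members, Rspo3 and Rspo4, were called higher in Gel than in Sham. Fzd1, not called between CuNZ@Gel and Sham, turned from slightly lower to slightly higher in CuNZ@Gel under quantile normalization and the common total. Between Gel and Sham 356 targets were lower and 122 higher as deposited, but 205 and 193 after quantile normalization and 201 and 277 after scaling to a common total. Between CuNZ@Gel and Sham the split was 195 lower and 64 higher as deposited, 82 and 80 after quantile normalization, and 78 and 117 after scaling to a common total. The median change of all targets between Gel and Sham was 0.06 as deposited and 0.24 under the common total.

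The 3 comparisons share specimens, so a high or low value in the Gel specimens enters 2 of them and the lists are not independent. All called genes were among the 9 above background. Among all 5554 targets above background the shares were larger than over all targets: 6.19% lower in Gel than in Sham, 3.47% lower in CuNZ@Gel than in Sham, and 2.16% higher in CuNZ@Gel than in Gel. Wnt4 and Ror2 passed the background limit mainly through the treatments in which they were high (Wnt4 in 8 Sham, 1 Gel and 7 CuNZ@Gel areas, Ror2 in 4, 0 and 2), so the count among the 9 is a description only. Over the 49 genes the median log2 change was 0.13 for Gel against Sham, 0.16 for CuNZ@Gel against Sham and 0.08 for CuNZ@Gel against Gel, beside 0.06, 0.04 and -0.02 over all targets.

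**Figure D2:**
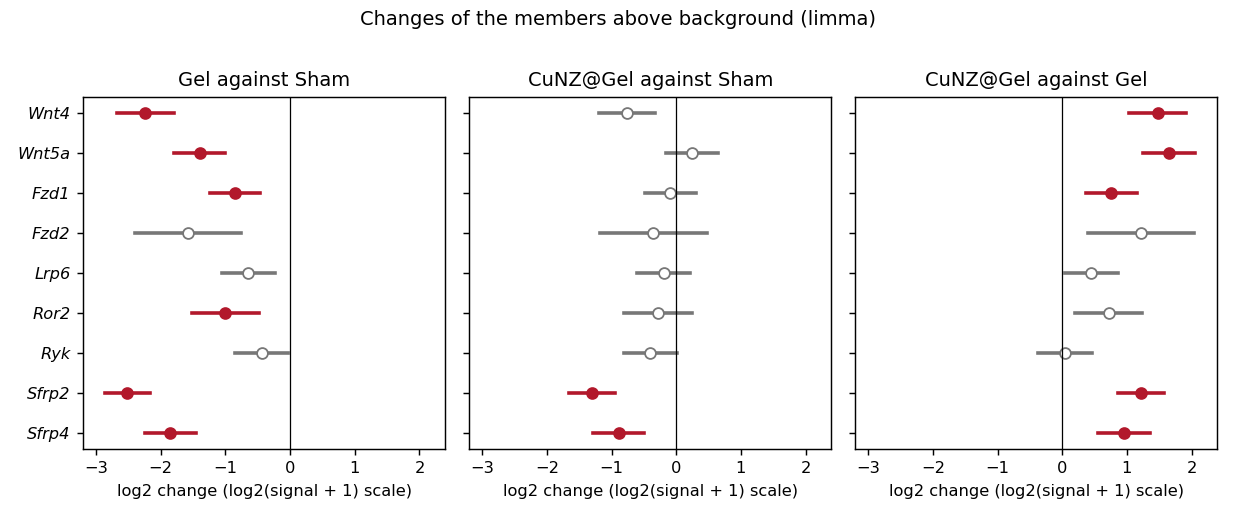
Log2 change (points) with its 95% confidence interval (bars) from limma for the 9 genes above background in the 3 treatment comparisons; red filled points passed an adjusted p of 0.05 and grey open points did not. Wnt4, Wnt5a, Fzd1, Sfrp2 and Sfrp4 lie left of 0 in Gel against Sham and right of 0 in CuNZ@Gel against Gel, and the interval of Fzd2 is the widest in each panel because its specimens differed most.

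Of the called genes, 5 have an entry in the RefSeq promoter table of the rat build GRCr8 (35 of the 50 genes do). The 250 bases before the annotated start are shown for Wnt4, Wnt5a and Sfrp2, which had the largest changes among the genes with an entry that passed both for Gel against Sham and between the gels. Sfrp4, which also passed both and fell by 1.85 against Sham, has no entry. All are on the plus strand, written 5′ to 3′ in lower case, with capitals marking CTTTG (the core of the site that TCF and LEF factors bind) and GGGCGG (the GC box), each searched on both strands and with overlapping matches counted.
Wnt4, chr5:154797200-154797449: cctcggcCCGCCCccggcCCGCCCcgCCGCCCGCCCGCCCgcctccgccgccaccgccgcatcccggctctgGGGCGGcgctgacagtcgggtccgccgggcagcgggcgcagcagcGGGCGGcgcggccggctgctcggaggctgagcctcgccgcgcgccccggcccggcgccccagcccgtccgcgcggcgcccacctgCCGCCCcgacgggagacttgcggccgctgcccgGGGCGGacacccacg
Wnt5a, chr16:3703415-3703664: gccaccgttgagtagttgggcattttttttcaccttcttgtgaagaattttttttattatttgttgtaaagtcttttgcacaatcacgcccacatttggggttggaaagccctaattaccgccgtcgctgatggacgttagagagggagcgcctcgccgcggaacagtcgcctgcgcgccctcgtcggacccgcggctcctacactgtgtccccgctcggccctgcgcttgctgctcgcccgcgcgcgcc
Sfrp2, chr2:171387286-171387535: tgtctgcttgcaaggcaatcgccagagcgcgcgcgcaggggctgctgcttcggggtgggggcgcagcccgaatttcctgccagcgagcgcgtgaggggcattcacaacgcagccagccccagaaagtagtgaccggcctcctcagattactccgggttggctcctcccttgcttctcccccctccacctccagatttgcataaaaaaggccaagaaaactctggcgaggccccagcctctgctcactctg

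The windows differ in composition. Wnt4 had 9 GC boxes, no CTTTG and 86.4% G or C, and 0.1% of all 33469 promoter windows hold as many GC boxes or more. Wnt5a and Sfrp2 had neither motif, at 57.2% and 62.4% G or C. Of the other called genes with a window, Fzd1 had 1 CTTTG and no GC box, and Ror2 had 6 GC boxes and no CTTTG. For reference, 48.2% of all windows hold CTTTG and 30.5% a GC box, and of the 35 member windows 13 and 18 do. The longer form CTTTGAT, found in 3.1% of all windows, was present in 1 of the 35 member windows, near that share. The window was that of Axin2. A match is a stretch of letters and says nothing of binding.

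Among the ligands, Wnt5a, which acts mainly without beta-catenin and guides cell movement, was low in Gel and at a similar level in Sham and CuNZ@Gel. The Sham specimens had mean signals of 62.9 and 44.2, the Gel specimens 19.6 and 31.0, and the CuNZ@Gel specimens 64.9 and 62.1. Single areas ran from 32.6 to 73.6 in Sham (median 58.4), from 5.45 to 56.2 in Gel (median 15.9) and from 36.8 to 82.3 in CuNZ@Gel (median 66.4). Both Gel specimens lay below all others, but their areas overlapped with those of the other treatments.

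Wnt5a was lower in Gel than in Sham by -1.40 on the log2 scale (SE 0.20, adjusted p = 6.4e-08) and higher in CuNZ@Gel than in Gel by 1.65 (SE 0.20, adjusted p = 2.7e-10). For Wnt5a the SD used by the test, 0.203, was below that of its own specimens, 0.348. CuNZ@Gel and Sham differed by 0.25 (95% interval -0.15 to 0.65, adjusted p = 0.723). The Gel areas of Wnt5a were uneven. In Segment 1 and Segment 2 they stood at 12.3 and 5.45 (region 1 of specimen 1), 45.6 and 15.2 (region 2 of specimen 1), 56.2 and 42.9 (region 1 of specimen 2) and 16.6 and 8.18 (region 2 of specimen 2). In 3 of these 8 areas Wnt5a was above 40, and in the others below 20. The difference from Sham did not pass with region 1 areas only (adjusted p = 0.798, log2 change -1.40), with edgeR (-0.79, adjusted p = 0.133) or with DESeq2 (-0.83, adjusted p = 0.357), both run on counts summed over a specimen's areas. The difference between the gels did not pass with region 1 areas only (1.35, adjusted p = 0.787) or with DESeq2 (1.14, adjusted p = 0.166).

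Wnt4, a ligand with roles in skin and kidney epithelium that can act with or without beta-catenin, separated the treatments most cleanly. Its specimen means were 41.0 and 40.7 in Sham, 9.01 and 7.92 in Gel, and 21.7 and 26.5 in CuNZ@Gel. The areas ran from 35.3 to 51.1 in Sham, from 3.07 to 12.3 in Gel and from 16.4 to 32.2 in CuNZ@Gel, with medians of 37.4, 9.16 and 24.3. No area of one treatment overlapped with an area of another. In counts, the Gel areas held 2 to 29 of this target and the Sham areas 12 to 157.

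Wnt4 was lower in Gel than in Sham by -2.24 (SE 0.22, adjusted p = 4.2e-15), and the call held under all 25 alternatives tried for it, with log2 changes from -3.30 to -1.80. It was higher in CuNZ@Gel than in Gel by 1.48 (SE 0.22, adjusted p = 4.3e-07), which did not pass with region 1 areas only (0.93, adjusted p = 0.234). CuNZ@Gel lay below Sham by -0.76 (95% interval -1.20 to -0.32), short of the threshold (adjusted p = 0.0613). That difference did pass without Gel specimen 1 (adjusted p = 0.0223), without Gel specimen 2 (adjusted p = 0.019) and under 5 further alternatives. Of the 8 Gel areas 7 were at or under the background limit, where the level of a target has no firm order.

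The other 17 Wnt ligands, which include the beta-catenin ligands Wnt1, Wnt2, Wnt3, Wnt3a, Wnt7a and Wnt10b, were above background in no area. None was called in a treatment comparison. The largest change among them was that of Wnt8b, with specimen means of 2.46 and 2.80 in Sham, 2.79 and 2.89 in Gel and 4.41 and 6.53 in CuNZ@Gel. Its log2 change from Sham was 0.80 (SE 0.29, adjusted p = 0.208), at 1 to 15 counts per area.

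**Figure D3:**
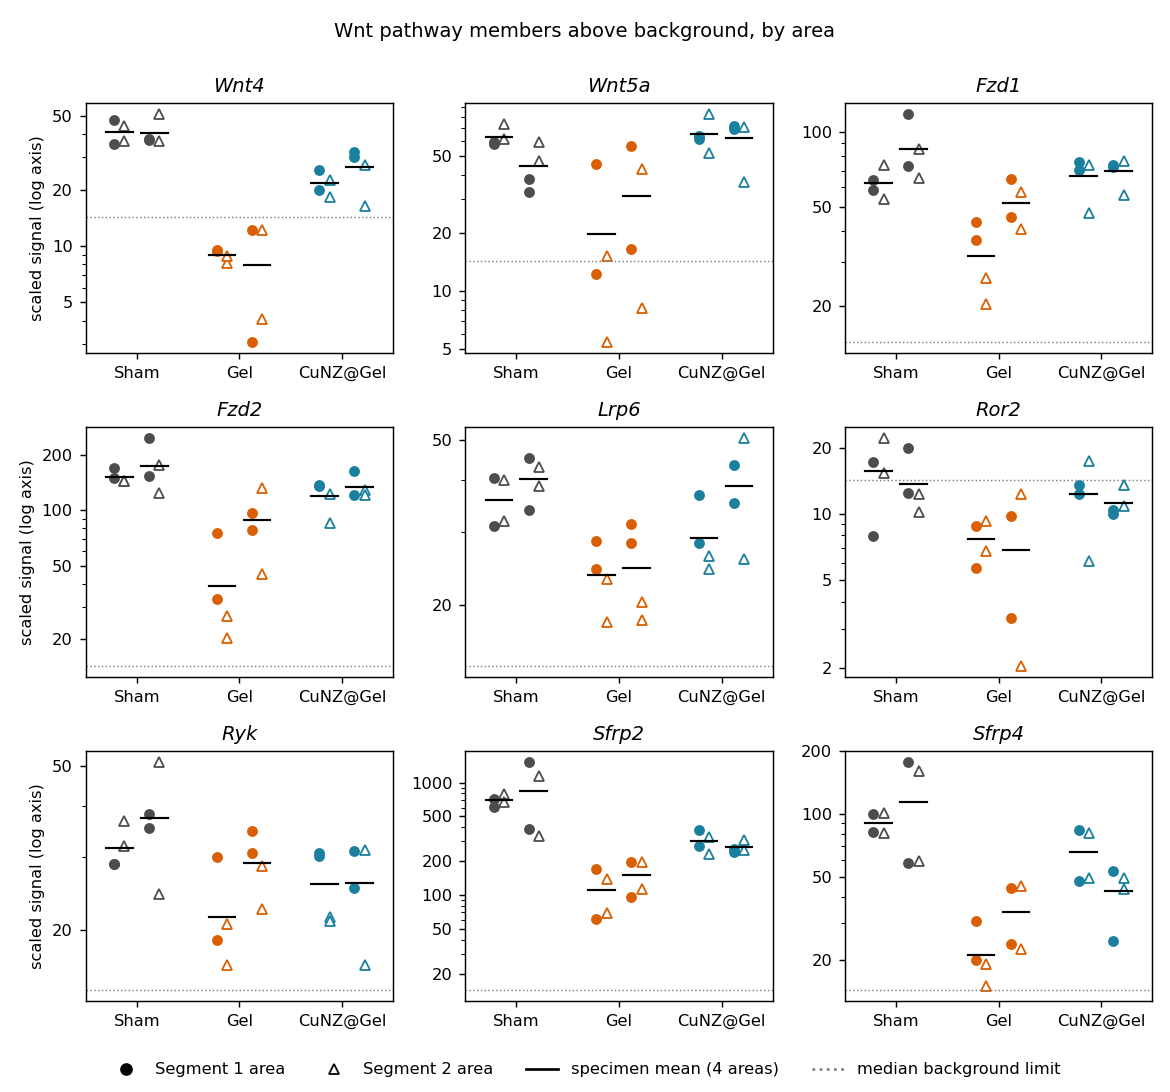
Scaled signal on a log axis for the 9 genes above background, with each of the 24 areas as a point (filled circles Segment 1, open triangles Segment 2), the mean of each specimen's 4 areas as a black line, specimens side by side within a treatment, and the median background limit as a dotted line. The Wnt4 areas form 3 separate bands, the Sfrp2 areas of Gel lie below all others, and the Wnt5a areas of Gel spread from 5.45 to 56.2.

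Of the Frizzled receptors, Fzd1 and Fzd2 were above background in every area. Fzd1 had specimen means of 62.5 and 85.5 in Sham, 31.6 and 52.0 in Gel, and 66.9 and 69.6 in CuNZ@Gel. Its areas ran from 54.0 to 118 in Sham (median 69.3), from 20.4 to 64.7 in Gel (median 42.1) and from 47.3 to 76.3 in CuNZ@Gel (median 73.1). The Gel specimens were the lowest, and the areas overlapped.

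Fzd1 was lower in Gel than in Sham by -0.85 (SE 0.20, adjusted p = 0.0027) and higher in CuNZ@Gel than in Gel by 0.76 (SE 0.20, adjusted p = 0.0236), while CuNZ@Gel and Sham differed by -0.09 (95% interval -0.48 to 0.30, adjusted p = 0.919). The SD used by the test, 0.196, was below that of its own specimens, 0.347. The difference from Sham did not pass without Sham specimen 2 (-0.64, adjusted p = 0.221), without Gel specimen 1 (-0.48, adjusted p = 0.411) or under 4 further alternatives. The difference between the gels did not pass under 12 of 25 alternatives, among them leaving out Gel specimen 1 (0.39, adjusted p = 0.615), CuNZ@Gel specimen 1 (0.79, adjusted p = 0.272) or CuNZ@Gel specimen 2 (0.72, adjusted p = 0.481), or without any of 4 single areas (largest adjusted p = 0.101).

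Fzd2, a receptor for Wnt5a among other ligands, moved by more than Fzd1 but with a wider spread. Its specimen means were 153 and 175 in Sham, 38.9 and 88.4 in Gel, and 120 and 134 in CuNZ@Gel. The areas ran from 125 to 247 in Sham (median 153), from 20.4 to 133 in Gel (median 60.3) and from 85.8 to 163 in CuNZ@Gel (median 126). Gel specimen 1 was far below the rest, and Gel specimen 2 was the next lowest.

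For Fzd2 the log2 change was -1.58 for Gel against Sham (SE 0.35, 95% interval -2.40 to -0.76), and it missed the threshold (adjusted p = 0.0811). It passed under 17 of 25 alternatives, with log2 changes from -2.20 to -0.96 over all of them. It also passed when any 1 of 10 single areas was left out. Without Gel specimen 1 it stood at -0.96, and without Gel specimen 2 at -2.20. Either omission leaves 1 Gel specimen and takes out the gap between the Gel specimens. With the specimen number as a replicate block it passed as well (limma, adjusted p = 9.1e-09). Same-numbered specimens did not deviate together, however, so this block has no basis in the data. The SD used by the main test, 0.354, was below that of the Fzd2 specimens themselves, 0.515. CuNZ@Gel against Gel gave 1.22 (SE 0.35, adjusted p = 0.384), which passed under 8 of 25, and CuNZ@Gel against Sham -0.36 (95% interval -1.18 to 0.47).

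Ror2 and Ryk are single-pass receptors for Wnt5a, and Lrp6 is the co-receptor of the beta-catenin branch. Ror2 had specimen means of 15.7 and 13.7 in Sham, 7.66 and 6.88 in Gel, and 12.4 and 11.2 in CuNZ@Gel, at 1 to 57 counts per area. Its areas ran from 7.94 to 22.1 in Sham, from 2.04 to 12.3 in Gel and from 6.13 to 17.5 in CuNZ@Gel, and overlapped. It was lower in Gel than in Sham by -1.0 (SE 0.26, adjusted p = 0.0141). That call was lost under 10 of 25 alternatives, among them leaving out Sham specimen 1 (-0.93, adjusted p = 0.194), Sham specimen 2 (-1.07, adjusted p = 0.055) or Gel specimen 2 (-0.82, adjusted p = 0.11), and also without the Segment 2 area of region 1 in Gel specimen 2 alone (adjusted p = 0.0901). CuNZ@Gel against Gel gave 0.72 for Ror2 (SE 0.26, adjusted p = 0.335).

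Lrp6 had specimen means of 35.8 and 40.2 in Sham, 23.6 and 24.6 in Gel, and 29.0 and 38.7 in CuNZ@Gel. Its areas ran from 31.0 to 45.2 in Sham, from 18.2 to 31.3 in Gel and from 24.5 to 50.4 in CuNZ@Gel, so that Gel and Sham barely overlapped. Gel against Sham gave -0.65 for Lrp6 (SE 0.20, 95% interval -1.05 to -0.24, adjusted p = 0.0687), and this passed under 2 of 25 alternatives. Ryk had specimen means of 31.6 and 37.3 in Sham, 21.5 and 29.1 in Gel, and 25.8 and 26.0 in CuNZ@Gel, and the same comparison gave -0.44 (95% interval -0.85 to -0.03, adjusted p = 0.36). The other Frizzled receptors, Lrp5 and Ror1 were not above background in 4 areas and none was called. Among them Fzd5 had the largest difference between the gels, -0.86 (SE 0.28, adjusted p = 0.169), with specimen means of 11.5 and 9.94 in Gel and 6.85 and 4.95 in CuNZ@Gel. Without the Segment 2 area of region 1 in CuNZ@Gel specimen 1 the Fzd5 difference passed (-1.01, adjusted p = 0.0472).

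The secreted inhibitors held the largest change of the whole group. Sfrp2, a secreted frizzled-related protein made by fibroblasts, had specimen means of 694 and 846 in Sham, 110 and 150 in Gel, and 303 and 265 in CuNZ@Gel. The areas ran from 333 to 1520 in Sham (median 695), from 61.3 to 197 in Gel (median 125) and from 231 to 378 in CuNZ@Gel (median 266). No Gel area reached the lowest area of either other treatment, while CuNZ@Gel and Sham overlapped through region 1 of Sham specimen 2 (388 and 333), whose region 2 held the highest areas (1520 and 1141).

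Sfrp2 was lower in Gel than in Sham by -2.52 (SE 0.18, adjusted p = 3.7e-25), lower in CuNZ@Gel than in Sham by -1.30 (SE 0.18, adjusted p = 2.6e-08) and higher in CuNZ@Gel than in Gel by 1.22 (SE 0.18, adjusted p = 2.0e-07). With region 2 areas only, the log2 change from Sham was -3.06 in Gel (adjusted p = 0.305) and -1.91 in CuNZ@Gel (adjusted p = 0.629), and that between the gels was 1.15 (adjusted p = 0.968). With region 1 areas only, CuNZ@Gel against Sham gave -0.68 for Sfrp2 (adjusted p = 0.405). No omission of a specimen or of a single area ended a Sfrp2 call.

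Sfrp4, a relative of Sfrp2, had specimen means of 90.8 and 114 in Sham, 21.1 and 33.8 in Gel, and 65.4 and 42.5 in CuNZ@Gel. Its areas ran from 58.4 to 177 in Sham (median 90.5), from 15.0 to 45.0 in Gel (median 23.1) and from 24.5 to 84.0 in CuNZ@Gel (median 49.1). Gel and Sham areas did not overlap, and CuNZ@Gel areas overlapped with both.

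Sfrp4 was lower in Gel than in Sham by -1.85 (SE 0.20, adjusted p = 1.0e-12), a call that held under all 25 alternatives. It was lower in CuNZ@Gel than in Sham by -0.89 (SE 0.20, adjusted p = 0.00423) and higher in CuNZ@Gel than in Gel by 0.96 (SE 0.20, adjusted p = 0.0011). The SD used was 0.2 against 0.364 of its own specimens. The difference from Sham did not pass under 11 of 25 alternatives, among them leaving out CuNZ@Gel specimen 2 (-0.58, adjusted p = 0.541) or Sham specimen 2 (-0.82, adjusted p = 0.0829). The difference between the gels did not pass under 9 of 25, among them leaving out CuNZ@Gel specimen 1 (0.65, adjusted p = 0.528) or Gel specimen 1 (0.65, adjusted p = 0.172), nor without the Segment 2 area of region 1 in Gel specimen 2 (adjusted p = 0.0507).

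The other 8 inhibitors were above background in no area and none was called. Dkk1, which blocks Lrp5 and Lrp6, had specimen means of 7.80 and 7.95 in Sham, 11.5 and 8.98 in Gel, and 7.20 and 8.54 in CuNZ@Gel. The log2 change of Dkk1 from Sham was 0.34 in Gel (95% interval -0.21 to 0.89). Wif1, which binds Wnt proteins directly, stayed between 1.23 and 10.5 in single areas, at 1 to 14 counts.

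All 4 R-spondins had higher means in Gel than in Sham, and none passed the threshold on the values as deposited. Rspo3 had specimen means of 6.57 and 6.23 in Sham, 15.0 and 10.2 in Gel, and 8.10 and 11.3 in CuNZ@Gel, and its 3 areas above the background limit were all Gel areas. Gel against Sham gave 0.90 for Rspo3 (SE 0.28, adjusted p = 0.0587), 0.84 for Rspo4 (SE 0.28, adjusted p = 0.105), 0.63 for Rspo2 (SE 0.29, adjusted p = 0.331) and 0.60 for Rspo1 (SE 0.27, adjusted p = 0.33). After scaling to a common total, Rspo3 (1.09, adjusted p = 0.0195) and Rspo4 (1.03, adjusted p = 0.0378) passed as higher in Gel. Rspo3 also passed with a pseudocount of 5, with means of linear values, with areas as samples, without Gel specimen 2 (1.15, adjusted p = 0.0147), and when any 1 of 4 single areas was left out (Segment 1 or Segment 2 of region 2 in Sham specimen 2, Segment 2 of region 1 in CuNZ@Gel specimen 1, or Segment 2 of region 2 in Gel specimen 1, adjusted p from 0.0365 to 0.0493). Their receptors Lgr4, Lgr5 and Lgr6 and the ubiquitin ligases Rnf43 and Znrf3, through which R-spondins act, gave 0 calls of 5 in every comparison. Only 1 of these 5 was above background. With 1.80% of all targets lower and 0.618% higher in Gel than in Sham, 0 of 5 does not show that they were unchanged.

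Axin2 and Lef1, whose RNA is widely read as a sign of beta-catenin activity, were above background in no area. Axin2 had specimen means of 4.90 and 2.52 in Sham, 2.47 and 4.73 in Gel, and 3.07 and 3.99 in CuNZ@Gel, at 1 to 9 counts per area. The log2 change of Axin2 was 0.08 between Gel and Sham (95% interval -0.50 to 0.67). Lef1 had means of 8.62 and 4.72, 5.51 and 9.16, and 6.39 and 9.32 in the same order, with a log2 change of 0.14 between Gel and Sham (95% interval -0.45 to 0.73). The change of a target this low is understated on the log2(signal + 1) scale.

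The segments of a region were compared with the specimen as a block. Of the 49 genes 1 was lower in Segment 2 and 0 higher, where 2.14% of all targets, 7.44% of those above background, were lower and 0.390% higher. The gene was Fzd2, with a change of -0.39 (SE 0.09, adjusted p = 0.00874), lower in Segment 2 in 10 of 12 regions. The SD used by the test, 0.161, was below the gene's own in this fit, 0.277, and the call was lost under 9 of 21 alternatives. The median change of all targets above background was -0.20. Segment 2 was the shallower in 11 of 12 regions, and in the exception, region 2 of Gel specimen 1, Fzd2 stood at 75.6 in Segment 1 and 26.6 in Segment 2. The Fzd2 call was lost when all areas were thinned to 1 depth (-0.41, adjusted p = 0.156), under quantile normalization (-0.23, adjusted p = 0.23), and without Gel specimen 1 (-0.24, adjusted p = 0.264), Sham specimen 2 (-0.35, adjusted p = 0.126) or CuNZ@Gel specimen 1 (-0.35, adjusted p = 0.0551). Sfrp2 differed by -0.03 between the segments (95% interval -0.17 to 0.11) and Wnt4 by -0.08 (95% interval -0.39 to 0.23).

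For Wnt5a the segment difference had opposite signs in Sham and Gel. In Sham its signal was higher in Segment 2 in 4 of 4 regions (for example 38.0 and 59.3 in region 1 of specimen 2), in Gel it was lower in Segment 2 in 4 of 4, and in CuNZ@Gel it was lower in 2 of 4. Within Gel the log2 change of Wnt5a was -0.97 (SE 0.21, adjusted p = 0.0107), where 0.380% of all targets were lower in Segment 2. Within Sham it was 0.38 (SE 0.21, adjusted p = 0.653), and within CuNZ@Gel -0.19 (SE 0.21, adjusted p = 0.839). The test of the difference itself, the interaction of treatment and segment, called 0 of the 49 genes, where 0.0507% of all targets passed, and 2 genes had an unadjusted p under 0.05. These were Wnt5a (F = 10.37, adjusted p = 0.137) and Wnt6 (F = 4.63, adjusted p = 0.757). Within Gel Wnt6, above background in no area, was higher in Segment 2 by 1.52 (SE 0.39, adjusted p = 0.0567). That Wnt6 difference passed with a pseudocount of 0 (adjusted p = 0.0311), median scaling (adjusted p = 0.0454) and a common total (adjusted p = 0.0359). Without CuNZ@Gel specimen 2 the interaction of Wnt5a passed (adjusted p = 0.0271), and with all areas thinned to 1 depth its adjusted p was 0.76.

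**Figure D4:**
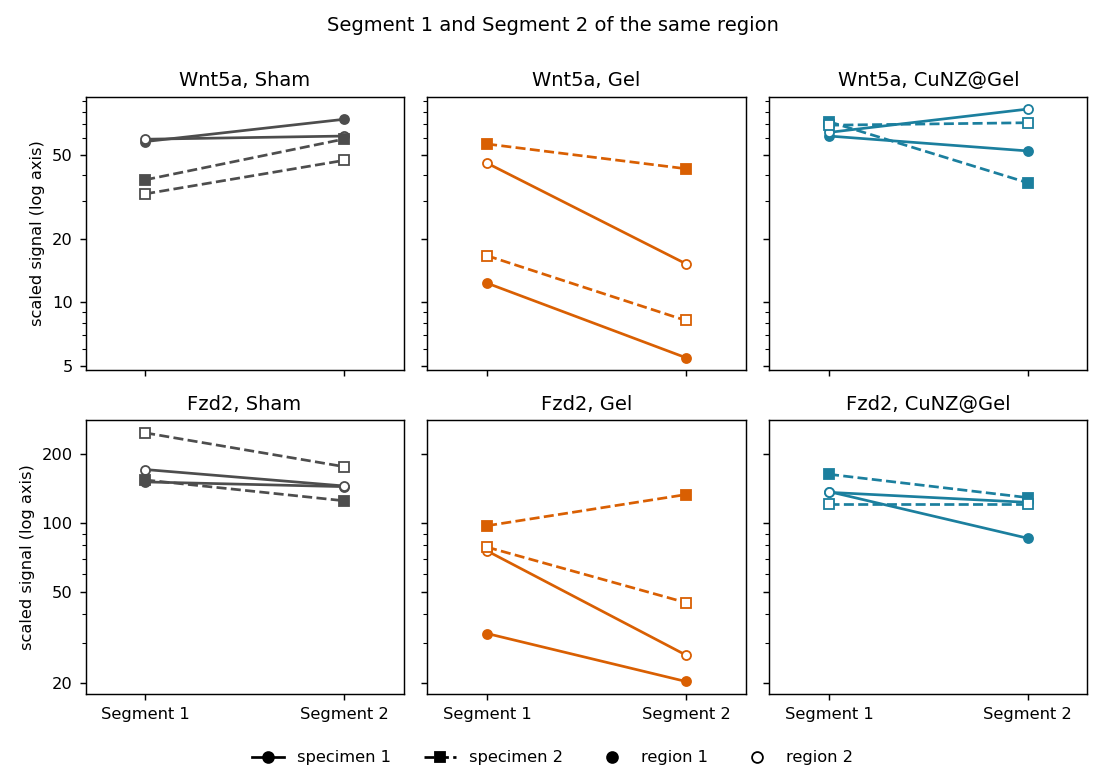
Scaled signal on a log axis of Wnt5a (top) and Fzd2 (bottom) in Segment 1 and Segment 2, with a line joining the segments of a region; circles and solid lines are specimen 1, squares and dashed lines specimen 2, filled symbols region 1 and open symbols region 2. The Wnt5a lines rise in 4 of 4 Sham regions and fall in 4 of 4 Gel regions, and the Fzd2 lines fall or stay level in all but 1 region.

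Regions of a specimen differed by more than segments for some of the genes. Sfrp2 differed between the regions of a specimen by a median of 0.70 on the log2 scale and by up to 1.87, in Sham specimen 2, but between segments of a region by a median of 0.23. Sfrp4 showed 0.69 and up to 1.51 between regions, also in Sham specimen 2, against 0.07 between segments. The regions of Gel specimen 2 differed most for Wnt5a (1.98), Wnt4 (1.54) and Ror2 (1.71). There Wnt5a and Wnt4 were higher in region 1, while Ror2 was higher in region 2 (9.81 and 12.3 against 3.38 and 2.04).

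The summed signal of fibroblast markers moved with these genes by treatment, but not every marker did. The summed signal of 10 fibroblast markers ran from 10868 to 32816 in Sham areas (median 14619), from 1992 to 11550 in Gel (median 6038) and from 7509 to 12799 in CuNZ@Gel (median 11274). Of the 10, 3 were lower in Gel than in Sham (Fap, Mfap5 and Lum) and 0 higher, with a median log2 change of -1.27. Over all targets 1.80% were lower and 0.618% higher. Of targets above background, as 8 of the 10 markers were, 6.19% were lower. In CuNZ@Gel 2 were lower than in Sham (Fap and Lum), beside 0.988% of all targets and 3.47% of those above background. Between the gels 1 was higher in CuNZ@Gel (Mfap5), beside 0.623% and 2.16%. Dpt alone of the list passed the background limit in no area. Dcn passed it in too few areas to count as above background. At that low signal Dcn ran the other way, without being called. Its change was 0.49 in Gel against Sham (adjusted p = 0.477) and -0.19 in CuNZ@Gel against Gel (adjusted p = 0.989). Pdgfra changed by -0.41 and 0.03 in the same comparisons and was not called. Col1a1 (-1.83, adjusted p = 0.259) and Col3a1 (-1.54, adjusted p = 0.479) were not called between Gel and Sham either. The summed signal of 8 contractile and mural markers ran from 607 to 1123 in Sham, from 53.3 to 396 in Gel and from 362 to 755 in CuNZ@Gel, with Myh11, Cnn1 and Des above the limit in no area. The summed signal of 7 adipocyte markers ran the other way, from 55.2 to 123 in Sham (median 80.9), from 66.4 to 762 in Gel (median 240) and from 78.8 to 242 in CuNZ@Gel (median 147). Of these only Fabp4 was above background (log2 change 1.69 in Gel against Sham, not called), and Adipoq, Plin1, Lep, Cidec, Pparg and Lpl passed the limit in no area. The part of these cell types in the changes of the Wnt genes was not tested.

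Across the 24 areas, which share specimens and the authors' scaling, the mean log2 signal of the 8 fibroblast markers above background correlated with Fzd2 (Pearson r 0.90), Fzd1 (0.85), Sfrp2 (0.85), Sfrp4 (0.83), Lrp6 (0.74), Wnt4 (0.71), Wnt5a (0.60), Ryk (0.58) and Ror2 (0.52). After the mean of each specimen was taken out the values were 0.59 for Fzd2, 0.55 for Fzd1, 0.51 for Lrp6, 0.44 for Sfrp2 and 0.42 for Sfrp4, but 0.15 for Wnt5a and 0.02 for Wnt4. Within specimens Wnt4 went with Wnt5a (0.69), Wnt5a with Fzd2 (0.71) and Sfrp2 with Sfrp4 (0.50), while Sfrp2 and Wnt5a ran opposite (-0.60) and so did Wnt4 and Ror2 (-0.65). The mean of the 8 markers leaves out Dpt and Dcn, and Dcn ran the other way by treatment. These correlations are descriptions of 24 areas of 6 specimens, and the pairs named were picked from all pairs of the 9 genes. The values for Wnt4 with Wnt5a and with Ror2 rest largely on the split between the regions of Gel specimen 2. Wnt4 passed the background limit in only 1 Gel area, so its low values there have no firm order. Depth correlated with the 9 genes between -0.05 and 0.26 over all areas. Within specimens its correlation was 0.39 with Fzd2, 0.31 with Ryk, 0.29 with Fzd1 and 0.39 with the fibroblast markers, and between -0.10 and 0.25 with the other 6 genes.

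**Figure D5:**
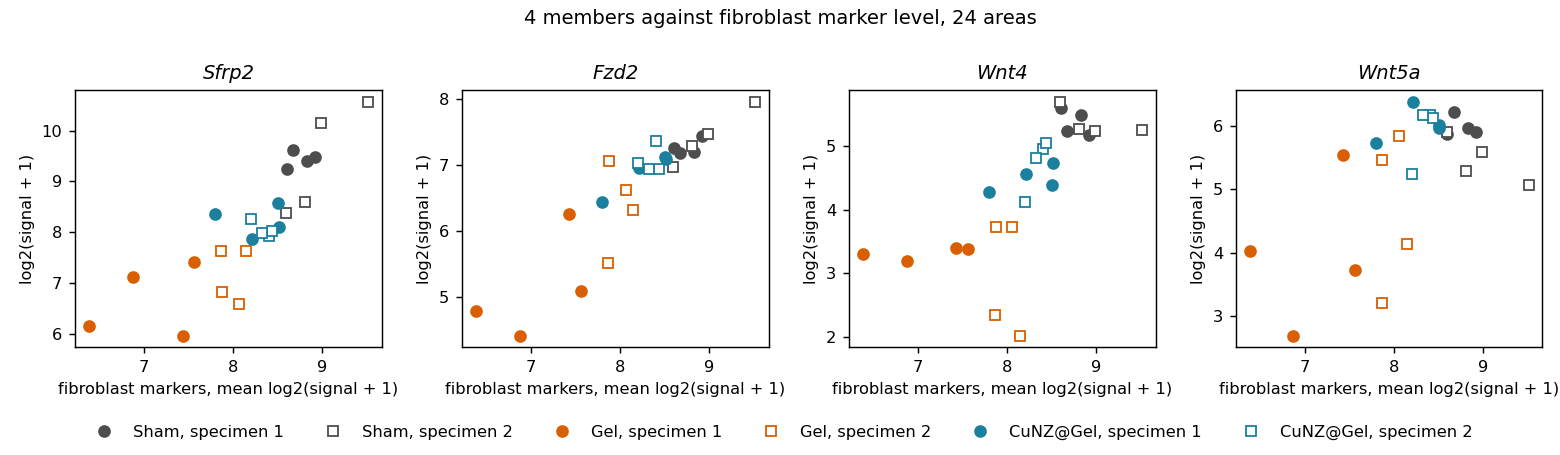
Log2(signal + 1) of Sfrp2, Fzd2, Wnt4 and Wnt5a against the mean log2(signal + 1) of 8 fibroblast markers in 24 areas, coloured by treatment, with filled circles for specimen 1 and open squares for specimen 2. Fzd2 follows the markers most closely (r 0.90), while the Gel areas of Wnt4 stay low whatever their marker level. All but 1 of these Gel areas were at or under the background limit for Wnt4, where a relation to the markers could hardly show.

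Further genes of the pathway were counted by list. Of 20 genes of Wnt secretion and extracellular modifiers, 5 were lower and 1 higher in Gel than in Sham, where 1.80% of all targets (6.19% of those above background) were lower and 0.618% higher. Of the 20, 8 were above background. Igfbp4, which binds insulin-like growth factors and has been reported to bind Lrp6, had specimen means of 1814 and 1131 in Sham, 142 and 268 in Gel, and 392 and 383 in CuNZ@Gel, with a log2 change of -2.93 (SE 0.22, adjusted p = 5.0e-10). The glypican Gpc6 changed by -1.83 (adjusted p = 3.8e-12) and Kremen1, a receptor for Dkk proteins, by -0.86 (adjusted p = 0.00133), while Tinagl1 rose by 1.24 (adjusted p = 2.3e-06). Between the gels Gpc6 (1.3) and Igfbp4 (1.04) were higher in CuNZ@Gel and Tinagl1 (-0.78) lower, and against Sham Igfbp4 (-1.89) and Gpc4 (-0.84) were lower in CuNZ@Gel. The median over the list was 0.00 between Gel and Sham.

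Of 22 cytoplasmic genes of the beta-catenin branch 1 was lower in Gel than in Sham, near the 6.19% of targets above background (14 of the 22 were). It was Ctnnb1, which encodes beta-catenin itself. Its specimen means were 130 and 118 in Sham, 70.8 and 89.7 in Gel, and 88.1 and 98.2 in CuNZ@Gel, with a log2 change of -0.64 (SE 0.18, adjusted p = 0.0318). In CuNZ@Gel Dvl2, an adaptor below Frizzled receptors, was lower than in Sham by -0.84 (adjusted p = 0.0124), and 0 of 22 differed between the gels. Of 14 nuclear partners 0 passed in Gel against Sham and 1, Tcf7, was higher in CuNZ@Gel than in Sham (1.07, adjusted p = 0.0256), with a signal above the limit in only 2 areas. The medians of these lists between Gel and Sham were -0.14 and -0.17, beside 0.06 over all targets.

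Of 23 genes of the planar cell polarity and calcium branch, 13 of them above background, 3 were lower in Gel than in Sham, beside 1.80% of all targets and 6.19% of those above background. Ptk7, a receptor-like protein of planar polarity, had specimen means of 175 and 160 in Sham, 53.8 and 75.8 in Gel, and 124 and 147 in CuNZ@Gel. It was lower in Gel by -1.47 (SE 0.18, adjusted p = 2.1e-10) and higher in CuNZ@Gel than in Gel by 1.15 (SE 0.18, adjusted p = 2.6e-06). Vangl2, a core polarity protein, changed by -0.94 (adjusted p = 0.0371), with a signal above the limit in 4 Sham areas only, and Camk2d, a calcium-dependent kinase, by -0.81 (adjusted p = 0.00553) between Gel and Sham. In CuNZ@Gel against Sham 0 of 23 passed.

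Of 23 genes reported as Wnt targets, 2 were lower in Gel than in Sham and 3 higher, with a median of -0.07, beside 1.80% lower and 0.618% higher over all targets. Of the 23, 11 were above background, where 6.19% of targets were lower. Fn1, which encodes fibronectin, changed by -1.56 (adjusted p = 3.2e-12) and Ccn4 by -0.71 (adjusted p = 0.0122), while Fosl1 (0.98, adjusted p = 0.00228), Fst, which encodes follistatin (0.89, adjusted p = 0.0196), and Myc (0.69, adjusted p = 0.0343) rose. Between the gels Fn1 (1.38) and Ccn4 (1.21) were higher in CuNZ@Gel and Fst (-1.34) lower, and 0 of 23 passed in CuNZ@Gel against Sham. Many of these genes also answer to other pathways, and Fn1 is a product of fibroblasts.

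In the segment comparison, where 2.14% of all targets and 7.44% of those above background were lower in Segment 2, 3 of the 20 modifiers were lower in Segment 2 (Tinagl1 by -0.75, Tspan12, a tetraspanin that works with Frizzled receptors, by -0.77, and Igfbp4 by -0.30), and 0 higher. Of the reported targets 4 were lower (Ccnd1 by -0.65, Myc by -0.44, Fn1 by -0.40 and Tcf4 by -0.37) and 0 higher, and Gsk3b, a kinase that marks beta-catenin for destruction, was lower by -0.46. Igfbp4 was the only gene of these lists whose segment difference depended on treatment by the interaction test (F = 17.23, adjusted p = 0.00741).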

How the data were processed

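Per the labels' protocols, GeoMx probe tags were collected from 24 areas of fixed wound sections. The deposited signal values are scaled, by steps that the sources used here do not give. Their 75th percentile was 12.3 in the median area, and between 99.98% and 99.995% of values in an area were whole multiples of the lowest value (within 0.01 of a count), so counts were recovered. Symbols were used as deposited, and each of the 50 is also a RefSeq symbol of the rat build GRCr8.

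A target had to exceed its area's negative probe in 4 or more areas to be tested (19728 did). With limma 3.58.1 (R 4.3.3), linear models were fitted by lmFit and moderated by eBayes, trend and robust options on, to log2(signal + 1), with 4 areas averaged per specimen for treatments and 2 per specimen and segment, with the specimen as a block, for segments. P-values are Benjamini-Hochberg adjusted over all targets. A target had 3 residual degrees of freedom and borrowed a median of 133 from the others, a number that differed between targets. The p-value of most targets thus depends mostly on the spread of targets at a similar level. edgeR 4.0.16 and DESeq2 1.42.0 on recovered counts (369 and 152 targets called between Gel and Sham, beside 478 with limma) were alternatives, as were other scalings, pseudocounts, filters, depths and omissions of a specimen. Leaving out single areas was added after seeing the data. The fits were also run on simulated data, with a spread between specimens set below that seen for Fzd2, Sfrp4 and Wnt5a. That run does not show how the fits behave for genes with so wide a spread.

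Specimen numbers recur across treatments, but same-numbered specimens did not deviate together (correlations 0.0037, -0.0315 and -0.0252 over 5554 targets), so they were not treated as pairs. Genes above background in 4 areas were described with values, called genes with every specimen, and the rest by counts and ranges. From the further lists at most 4 called genes a list and comparison were named, except that all called reported targets between Gel and Sham were. The members and lists were chosen with earlier results of these data known.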

Additional observations from a re-analysis of the deposited data

Results flagged for a closer look

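For Fzd2 in Sham, the Segment 1 area of region 2 in specimen 2 stood at 247 in scaled signal, and the next highest of the 8 Sham areas was at 176. That gap made up 0.581 of the range of the group, above the critical share of 0.526 for 8 values. In all 27 groups of 8 areas were looked at and 1 stood out, where chance alone gives about 1 in 20. Leaving out this area, the Fzd2 difference between Gel and Sham passed the threshold.

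For Wnt5a the segment difference ran in opposite directions in Sham (higher in Segment 2 in 4 of 4 regions) and Gel (lower in 4 of 4). The interaction test that compares the treatments did not pass (limma, adjusted p = 0.137, and between 0.0271 and 1 over 16 alternatives).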

How the results depend on the processing

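Between Gel and Sham 6 genes were called, and between 3 (DESeq2) and 9 (areas as samples) under the alternatives. Leaving out a specimen or an area gave 4 to 8. Between CuNZ@Gel and Sham 2 were called, but 1 under quantile normalization, scaling to a common total, thinned counts, limma without trend and robust, Segment 2 areas only, region 2 areas only, edgeR or DESeq2, and 0 with region 1 areas only. Leaving out a specimen or an area gave 1 to 3. Between the gels 5 were called, but 3 under limma without trend and robust or edgeR, 2 under DESeq2 and 1 with region 1 areas only, with 3 to 6 when a specimen or area was left out. For the segments 1 was called, but 3 under median scaling, and 0 under quantile normalization, scaling to a common total, thinned counts, limma without trend and robust, region 1 areas only, and within Sham or CuNZ@Gel alone, with 0 to 1 when a specimen was left out. The interaction called 0, and 0 to 1 with a specimen left out. The specimen number as a replicate block called 7 genes between Gel and Sham, 2 between CuNZ@Gel and Sham and 6 between the gels. It added Fzd2 in the first and the last, though same-numbered specimens did not deviate together. For the segments a fit with no replicate block called 0. For the 9 genes above background, 864 values were recomputed: 761 kept their call, 67 lost it, 36 gained one, and none of the called values changed sign. The cause of these shifts was not tested. Quantile normalization moved the median of all targets above background between Gel and Sham from -0.15 to 0.01. Depth limits Segment 2 areas, with 28.5% of targets at a single count in the median area.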
